A study of Mus musculus with 2 samples.

Results

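The genes described here carry out the steps that turn arachidonic acid into prostaglandins and leukotrienes. They are Ptgs1, Ptgs2, Hpgds, Ptges and Hpgd on the prostaglandin side, and Alox5, Alox5ap, Lta4h and Ltc4s on the leukotriene side. The 9 genes were taken by symbol, and all 9 were found among the 31053 genes counted in both libraries. They were followed in single islet macrophages, defined as cells with at least 5 UMIs (unique molecular identifiers, each standing for 1 captured RNA molecule) of C1qa, C1qb and C1qc together, and in the other immune cells of the same sort.

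The study profiled living CD45+ Epcam- cells sorted from pancreatic islets of male C57BL/6J mice on chow, by 10x 3′ single-cell RNA sequencing. It made 2 libraries, one labelled 12 weeks and one labelled 1 week, each from a pool of 6 to 8 mice. What is counted in weeks is not stated. Each label has 1 library, prepared as its own experiment, so the time label, the pool and the library cannot be told apart, and values at 12 weeks and 1 week are compared without a test.

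Cyclooxygenases, encoded by Ptgs1 and Ptgs2, oxidise arachidonic acid to prostaglandin H2, from which each terminal synthase makes its own product: prostaglandin D2 through Hpgds, prostaglandin E2 through Ptges. Hpgd encodes the dehydrogenase that inactivates prostaglandins. In the parallel branch, 5-lipoxygenase (Alox5) works with the membrane protein FLAP (Alox5ap) to make leukotriene A4, which the hydrolase Lta4h converts to leukotriene B4 and the synthase Ltc4s converts to leukotriene C4. Macrophages are a textbook source of both kinds of mediator, and Ptgs2 is the inducible cyclooxygenase of inflammation while Ptgs1 is the constitutive one.

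After filtering, 1752 cells remained at 12 weeks and 1340 at 1 week, of which 1620 (92.5%) and 1243 (92.8%) were macrophages. Their median depth was 6890.5 UMIs at 12 weeks and 7401 UMIs at 1 week. The macrophage label held against 3 markers that the gate did not use: Csf1r had a UMI in 90.6% of macrophages and 20.5% of cells with low C1q at 12 weeks, and in 89.5% and 24.7% at 1 week. Adgre1 and Cd68 separated the same cells, with a UMI in between 70.2% and 90.2% of macrophages in the 2 libraries and in between 3.79% and 25.8% of cells with low C1q. Among macrophages, 79 (4.88%) at 12 weeks and 110 (8.85%) at 1 week also carried markers of another cell class, and 3 barcodes occurred in both libraries.

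The promoters of the cyclooxygenase genes and of Hpgds are shown because Ptgs2 and Hpgds were called higher in macrophages high for 2 expression programs described further on, where Ptgs1 was not called. Each run is the 300 bases from 250 before to 50 after the annotated start, 5′ to 3′ on the gene's strand, from RefSeq on GRCm38.p6. Windows are chr1:150099781-150100080 on the plus strand for Ptgs2, chr2:36230176-36230475 on the plus strand for Ptgs1 and chr6:65144681-65144980 on the minus strand for Hpgds. Capitals mark matches to the motifs searched.
Ptgs2: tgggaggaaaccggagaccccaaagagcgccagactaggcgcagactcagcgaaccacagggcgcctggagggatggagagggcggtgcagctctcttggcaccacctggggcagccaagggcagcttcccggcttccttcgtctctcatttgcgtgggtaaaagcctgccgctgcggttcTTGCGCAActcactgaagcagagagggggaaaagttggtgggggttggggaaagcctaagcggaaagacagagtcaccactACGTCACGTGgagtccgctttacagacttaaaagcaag
Ptgs1: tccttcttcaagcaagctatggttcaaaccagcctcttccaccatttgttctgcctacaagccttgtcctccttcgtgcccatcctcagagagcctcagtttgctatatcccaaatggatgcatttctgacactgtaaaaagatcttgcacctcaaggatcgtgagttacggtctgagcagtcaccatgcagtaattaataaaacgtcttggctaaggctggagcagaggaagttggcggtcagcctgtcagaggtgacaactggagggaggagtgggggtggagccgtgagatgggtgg
Hpgds: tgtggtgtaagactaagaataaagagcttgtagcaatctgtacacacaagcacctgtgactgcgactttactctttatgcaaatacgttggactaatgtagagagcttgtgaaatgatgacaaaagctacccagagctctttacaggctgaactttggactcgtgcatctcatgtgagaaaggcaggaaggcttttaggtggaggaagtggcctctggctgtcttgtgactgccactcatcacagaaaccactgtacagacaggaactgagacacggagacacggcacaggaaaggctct

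The searched motifs, on both strands, were TTGCGCAA (a C/EBP palindrome), ACGTCA (part of a cyclic AMP response element), CACGTG (an E-box), TATAAA, the consensus NF-kappaB decamer and TGAGTCA (AP-1). The Ptgs2 window held TTGCGCAA at bases 182 to 189, ACGTCA at bases 263 to 268 and CACGTG at bases 267 to 272, the last 2 sharing 2 bases. TTGCGCAA occurred in 0.183% of 32851 promoter windows of this length, ACGTCA in 7.51% and CACGTG in 7.15%. None of the 6 motifs lay in the Ptgs1 or Hpgds window. Of the 8 members with a window in the table, none held the NF-kappaB decamer, which 0.155% of all windows hold, or TGAGTCA, which 5.20% hold. Hpgd held TATAAA at bases 255 to 260, as 13.6% of windows do. A match is a description of the letters and says nothing of binding.

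Islet macrophages carried transcripts of a cyclooxygenase step and of prostaglandin D2 synthase, and almost none of the inducible prostaglandin E synthase Ptges. Ptges3, which can also make prostaglandin E2 and is no member, stood at 314.2 CPM (UMIs per 1000000) at 12 weeks and 263.8 CPM at 1 week. To compare cells at 1 depth, each was thinned to 3000 UMIs, which left 1530 macrophages at 12 weeks and 1089 at 1 week after 90 and 154 shallower cells were set aside. Detection below is the share of these cells with a UMI. Levels are CPM summed over all macrophages of a library at full depth, and since UMIs count 3′ ends they are not divided by gene length. Intervals are exact 95% intervals (Poisson for CPM, binomial for shares) and cover counting error only.

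Hpgds, which encodes hematopoietic prostaglandin D synthase (chr6:65117293-65144908 on GRCm38, minus strand), was the most abundant member in both libraries. It reached 360.0 CPM (349.1 to 371.2) at 12 weeks and 205.8 CPM (197.6 to 214.3) at 1 week. Detection at equal depth was 59.7% (57.2 to 62.2) at 12 weeks and 41.8% (38.8 to 44.8) at 1 week. It was thus spread over a large share of the macrophages rather than held by a few: the 10% of cells with the most Hpgds held 35.3% of its UMIs at 12 weeks and 41.3% at 1 week.

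Ptgs2, the inducible cyclooxygenase (chr1:150100031-150108227, plus strand), stood at 77.9 CPM (72.8 to 83.2) at 12 weeks and 61.2 CPM (56.7 to 65.9) at 1 week. At equal depth it was detected in 12.0% of macrophages (10.4 to 13.7) at 12 weeks and 10.5% (8.71 to 12.4) at 1 week. Its counts were uneven between cells. The 10% of cells with the most Ptgs2 held 91.2% of its UMIs at 12 weeks and 97.5% at 1 week. With a UMI in only 12.0% and 10.5% of cells these shares had to be high, and they are no measure of unevenness. The variance of its thinned counts was 2.73 times their mean at 12 weeks and 2.40 times at 1 week, the highest ratio of the members with a UMI in each library, against 1.37 and 1.48 for Hpgd. At least 3 Ptgs2 UMIs were found in 41 of 1530 thinned macrophages at 12 weeks and 25 of 1089 at 1 week, and the highest cell at full depth held 37 UMIs at 12 weeks and 28 at 1 week.

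Ptgs1, the constitutive cyclooxygenase (chr2:36230426-36252272, plus strand), was lower than Ptgs2 in both libraries, at 14.1 CPM (12.0 to 16.4) at 12 weeks and 21.2 CPM (18.6 to 24.1) at 1 week. Its detection was 3.99% (3.06 to 5.09) at 12 weeks and 6.52% (5.13 to 8.15) at 1 week. Both cyclooxygenase transcripts were therefore present, in different amounts. Ptgs2 was detected in 11.5% (4.74 to 22.2) of macrophages with Ptgs1 and 12.0% (10.4 to 13.8) of those without it at 12 weeks, and in 9.86% (4.06 to 19.3) and 10.5% (8.69 to 12.6) at 1 week, 7 cells with both in each library. The intervals overlapped in both libraries.

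Ptges, the inducible prostaglandin E synthase (chr2:30889471-30929863, minus strand), had 15 UMIs among all macrophages at 12 weeks (1.31 CPM) and 13 at 1 week (1.14 CPM). Its detection at equal depth was 0.392% at 12 weeks and 0.275% at 1 week. Hpgd, the prostaglandin-inactivating dehydrogenase (chr8:56294585-56321043, plus strand), stood at 33.0 CPM (29.8 to 36.5) at 12 weeks and 47.2 CPM (43.3 to 51.3) at 1 week. Macrophages thus carried transcripts for breakdown as well as synthesis of prostaglandins. Hpgd was detected in 8.37% (7.03 to 9.87) at 12 weeks and 13.7% (11.7 to 15.9) at 1 week.

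On the leukotriene side the transcript of the lipoxygenase itself was nearly undetected while that of its partner protein was abundant. Alox5ap (chr5:149264767-149288153, plus strand) stood at 155.6 CPM (148.4 to 163.0) at 12 weeks and 175.3 CPM (167.7 to 183.2) at 1 week, and was detected in 34.8% (32.4 to 37.2) and 39.2% (36.3 to 42.2) of thinned macrophages. Alox5 (chr6:116410077-116461178, minus strand) had 2 UMIs in 2 of 1620 macrophages at 12 weeks and 5 UMIs in 5 of 1243 at 1 week. After thinning it was left in 1 of 1530 cells at 12 weeks and 0 of 1089 at 1 week, the last allowing a share of cells with a UMI of up to 0.275% by a floor of 3 counts. Nearly every macrophage with Alox5ap transcripts thus had none counted of the enzyme it serves.

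The enzymes acting on leukotriene A4 were both present at low levels. Ltc4s, the leukotriene C4 synthase (chr11:50236461-50238616, minus strand), stood at 23.2 CPM (20.5 to 26.1) at 12 weeks and 17.5 CPM (15.2 to 20.1) at 1 week, with detection of 6.21% (5.05 to 7.54) and 5.51% (4.23 to 7.04). Lta4h, the leukotriene A4 hydrolase (chr10:93453411-93484875, plus strand), had 129 UMIs at 12 weeks (11.3 CPM) and 135 at 1 week (11.8 CPM), with detection of 3.14% and 3.21%. Alox5ap and Ltc4s overlap antisense genes on the opposite strand (Gm19719 and Gm26542), and the sources used here do not say whether counting used strand, so some of their UMIs may belong to those genes.

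**Figure D1:**
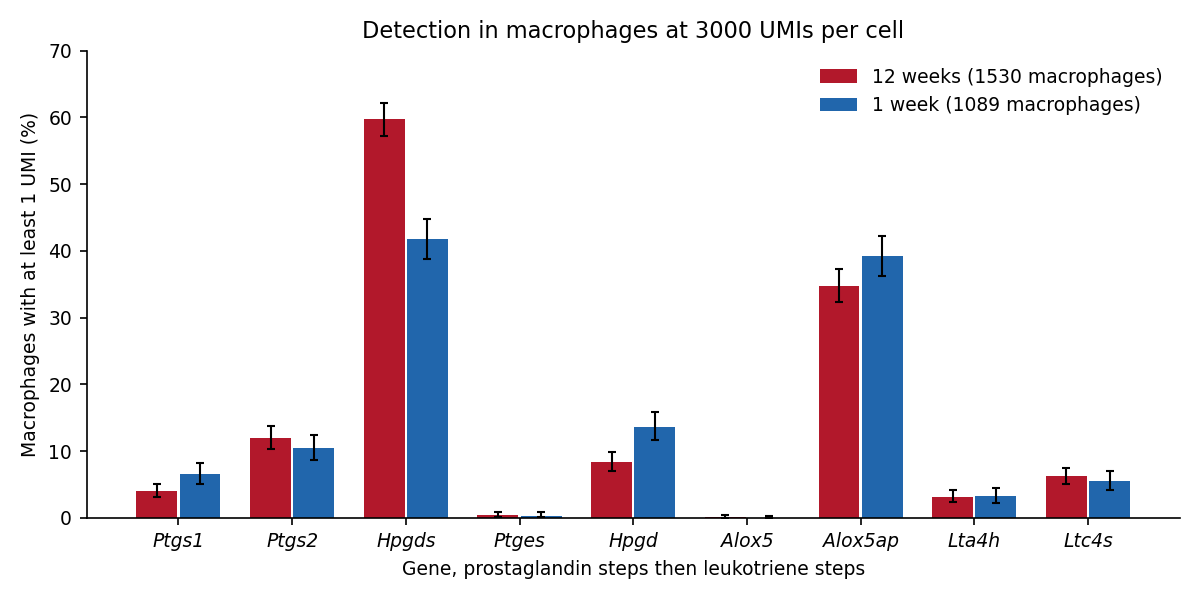
Share of macrophages with a UMI of each member after thinning to 3000 UMIs per cell (y axis, percent; bars are exact binomial 95% intervals), for the 12 weeks and 1 week libraries. Hpgds and Alox5ap lead in both libraries, Hpgds is higher at 12 weeks (59.7%) than at 1 week (41.8%), and Ptges and Alox5 stay near 0.

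In order of level at 12 weeks, Hpgds stood above Alox5ap, Ptgs2, Hpgd, Ltc4s, Ptgs1, Lta4h, Ptges and Alox5. At 1 week the order was the same except that Ptgs1 stood above Ltc4s. The intervals of Ptgs1 (12.0 to 16.4 CPM) and Ltc4s (20.5 to 26.1 CPM) did not overlap at 12 weeks, and those at 1 week (18.6 to 24.1 and 15.2 to 20.1 CPM) did. Capture can differ between transcripts, so an order of UMIs is not an order of molecules.

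At this depth most single macrophages showed at most 1 of the steps. Of the 7 members other than Ptges and Alox5, 18.6% of thinned macrophages at 12 weeks and 25.1% at 1 week had none, and 43.7% and 40.9% had exactly 1. A further 29.5% of all thinned macrophages at 12 weeks and 24.5% at 1 week had 2, and 7.19% and 8.08% had 3. No cell had more than 5.

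A cyclooxygenase and prostaglandin D synthase were found together in 146 of 1530 thinned macrophages (9.54%) at 12 weeks and 87 of 1089 (7.99%) at 1 week. Hpgds was detected in 64.5% (57.1 to 71.4) of macrophages with Ptgs2 and 59.1% (56.4 to 61.7) of those without it at 12 weeks, and in 49.1% (39.6 to 58.7) and 40.9% (37.8 to 44.1) at 1 week. The intervals overlapped in both libraries. For Ptgs1 the direction was not shared: Hpgds was in 49.2% of macrophages with Ptgs1 and 60.2% of those without at 12 weeks, and in 49.3% and 41.3% at 1 week. On the leukotriene side, Ltc4s was in 6.02% of cells with Alox5ap and 6.31% of those without at 12 weeks, and in 5.62% and 5.44% at 1 week. The share of cells with the synthase was thus close in cells with and without its upstream partner.

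Between the libraries, the prostaglandin D synthase and the constitutive cyclooxygenase differed in opposite directions. The ratio of macrophage CPM at 12 weeks to that at 1 week was 1.75 for Hpgds (counting interval 1.66 to 1.84) and 0.663 for Ptgs1 (0.540 to 0.813). Hpgd, the inactivating enzyme, had a ratio of 0.700 (0.613 to 0.800), and Ptgs2 one of 1.27 (1.15 to 1.41). The values of the 2 libraries stood apart by more than counting error for these 4 genes, for Ltc4s at 1.32 (1.10 to 1.60) and for Alox5ap at 0.887 (0.832 to 0.946). For Lta4h (0.743 to 1.22) and Ptges (0.511 to 2.63) the interval included 1. Spread between mice was not measured, since each value is 1 pool. None of the 8 members with at least 20 UMIs passed 2-fold in either direction, while 2.72% of 11072 genes were at least 2-fold higher at 12 weeks and 5.77% at least 2-fold lower. The median ratio was 1.05 over these members and 0.949 over all genes.

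The other immune cells of the sort were few. They were the low C1q cells, with under 5 C1q UMIs, that carried at least 2 different markers of 1 class: at 12 weeks 27 dendritic, 29 B and 32 T cells, and at 1 week 12 dendritic, 26 B and 10 T cells. Neutrophil, monocyte, innate lymphoid and endocrine gates each held under 10 cells in at least 1 library and were not tested. Ptgs2 and Hpgds were higher in value in macrophages than in each of the 3 classes, while Alox5ap was highest in dendritic cells among these 4 classes. For Ptgs2 the T cells at 1 week were too shallow to show a difference.

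Ptgs2 had 891 UMIs in macrophages at 12 weeks and 698 at 1 week. It had 0 UMIs in dendritic and in B cells of both libraries, and 2 in T cells, both in a single 12 weeks cell that also held 3 C1q UMIs. Over the 2 libraries its level in macrophages was at least 7.95-fold that in dendritic cells and at least 7.31-fold that in B cells, each set against a floor of 3 counts over the class. Ptgs1 was likewise at 0 in dendritic cells, against 161 UMIs in macrophages at 12 weeks and 242 at 1 week, which put macrophages at least 2.02-fold higher. In T cells at 1 week the 0 UMIs of Ptgs2 allow up to 121.9 CPM by the exact interval, above the 61.2 CPM of macrophages. The shallow classes thus limit how large a difference can be shown.

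Hpgds stood at 360.0 CPM in macrophages, 61.9 CPM in dendritic cells, 44.4 CPM in B cells and 41.0 CPM in T cells at 12 weeks. At 1 week it stood at 205.8 CPM in macrophages, 0 in dendritic cells, 39.5 CPM in B cells and 33.0 CPM in T cells. Macrophages were highest in both libraries. In B cells Hpgds was at 12.3% of its macrophage level at 12 weeks and 19.2% at 1 week, where the macrophage markers Adgre1, Csf1r and Cd68 together had 0 UMIs at 12 weeks and were at 3.76% at 1 week. In dendritic cells at 12 weeks Hpgds was at 17.2% of its macrophage level and the same markers at 17.1%, while at 1 week Hpgds had 0 UMIs and the markers were at 19.5%. The 1 week value in B cells rested on 1 cell that held 7 of the 8 Hpgds UMIs. Whether free RNA contributed to the Hpgds UMIs of these classes was not tested.

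Alox5ap stood at 155.6 CPM in macrophages and 420.1 CPM (339.9 to 513.6) in dendritic cells at 12 weeks, and at 175.3 CPM and 384.9 CPM (280.8 to 515.1) at 1 week. It was in 26 of 27 dendritic cells at 12 weeks and 11 of 12 at 1 week, at median depths of 7785 and 10490.5 UMIs, and at equal depth in 17 of 26 (65.4%) and 7 of 12 (58.3%). B and T cells had 0 UMIs of it at 12 weeks; at 1 week T cells had 0 and a single B cell held all 6 UMIs of its class. Lta4h was also higher in value in dendritic cells, with 11.3 CPM in macrophages and 44.2 CPM (10 UMIs) in dendritic cells at 12 weeks, and 11.8 CPM and 51.3 CPM (6 UMIs) at 1 week. So few UMIs left Lta4h below the filter of the test that follows.

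UMIs summed per library and class were compared by edgeR's quasi-likelihood test with a library term, adjusted by Benjamini-Hochberg over 3038 genes. The 2 libraries are the only replicates, and classes of 1 library share its mice. Of the 9 members, 3 passed the filter on low counts. All 3 were higher in macrophages than in the mean of the log2 levels of dendritic, B and T cells. Such a mean is not one of CPM, and any class with 0 UMIs pulls it far down. Of all genes tested 25.4% were higher and 9.61% lower. The log2 difference was 3.15 for Hpgds (SE 0.35, adjusted p = 8.49e-06), and 3.20 in the 12 weeks and 5.94 in the 1 week library alone, where dendritic cells had 0 UMIs. For Alox5ap the adjusted p was 0.000443, and for Ptgs2 it was 2.07e-05. Their fitted log2 differences of 4.66 and 8.20 depend on the prior count and are no measure of fold, since T cells had 0 UMIs of Alox5ap and dendritic and B cells 0 of Ptgs2 in both libraries. DESeq2 gave Ptgs2 an adjusted p of 0.314. A member that passed only through its level in macrophages had to differ, so these counts are a description.

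Against dendritic cells alone, 2 members were higher and 1 lower in macrophages, where 12.4% of all genes were higher and 7.47% lower. Hpgds was higher by 3.18 on the log2 scale (SE 0.50, edgeR adjusted p = 0.000475). It was higher by 2.75 in the 12 weeks library alone, while the 1 week library had 0 UMIs in dendritic cells and so gives no fold. Alox5ap was lower, at -1.15 (SE 0.35, edgeR adjusted p = 0.0329), with an adjusted p of 0.311 by DESeq2 and 0.191 by edgeR without the filter on low counts, where 4.45% of genes were higher and 1.19% lower. Against B cells, where 23% of genes were higher and 12.5% lower, all 3 members were higher, among them Alox5ap (edgeR adjusted p = 0.0008). Its fitted difference of 3.26 on the log2 scale is no measure of fold either, with 0 UMIs in B cells at 12 weeks and 2.50 in the 1 week library alone, whose 6 B cell UMIs came from 1 cell. Against T cells, where 19.7% of genes were higher and 11.4% lower, all 3 were again higher, among them Hpgds by 3.49 (SE 0.61, edgeR adjusted p = 0.000566). Ptgs2 had 0 UMIs in dendritic and B cells and 2 in T cells, and Alox5ap 0 in T cells. The counts of members called against single classes are thus a description. DESeq2 called Ptgs2 against none of them (adjusted p = 0.448 for dendritic, 0.355 for B and 0.664 for T cells). The direction for Alox5ap thus turned with the class it was set against.

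With no filter on low counts all 9 members were tested and 6 were higher in macrophages than in the mean of the 3 classes, where 10.7% of genes were higher and 0.931% lower. Beside the 3 above these were Ptgs1, Hpgd and Ltc4s, with edgeR adjusted p of 2.12e-05, 1.91e-08 and 0.000388. Set against each class in the same fit, Hpgd was called against every class. Ltc4s was called only against T cells, which had 0 UMIs of it. Its edgeR adjusted p was 0.0343 there, 0.538 against B cells and 0.0545 against dendritic cells. Ptgs1 was called against B and dendritic cells and not against T cells (edgeR adjusted p = 0.107). When all low C1q immune cells of a library were summed into 1 profile, 5 members were higher and 1 lower in macrophages, where 14.5% of genes were higher and 9.79% lower. The lower one was Lta4h, with 11.3 CPM in macrophages and 33.0 CPM in those cells at 12 weeks and 11.8 and 22.7 CPM at 1 week (edgeR adjusted p = 0.0493), and Alox5ap stood at -0.14 (adjusted p = 0.633).

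**Figure D2:**
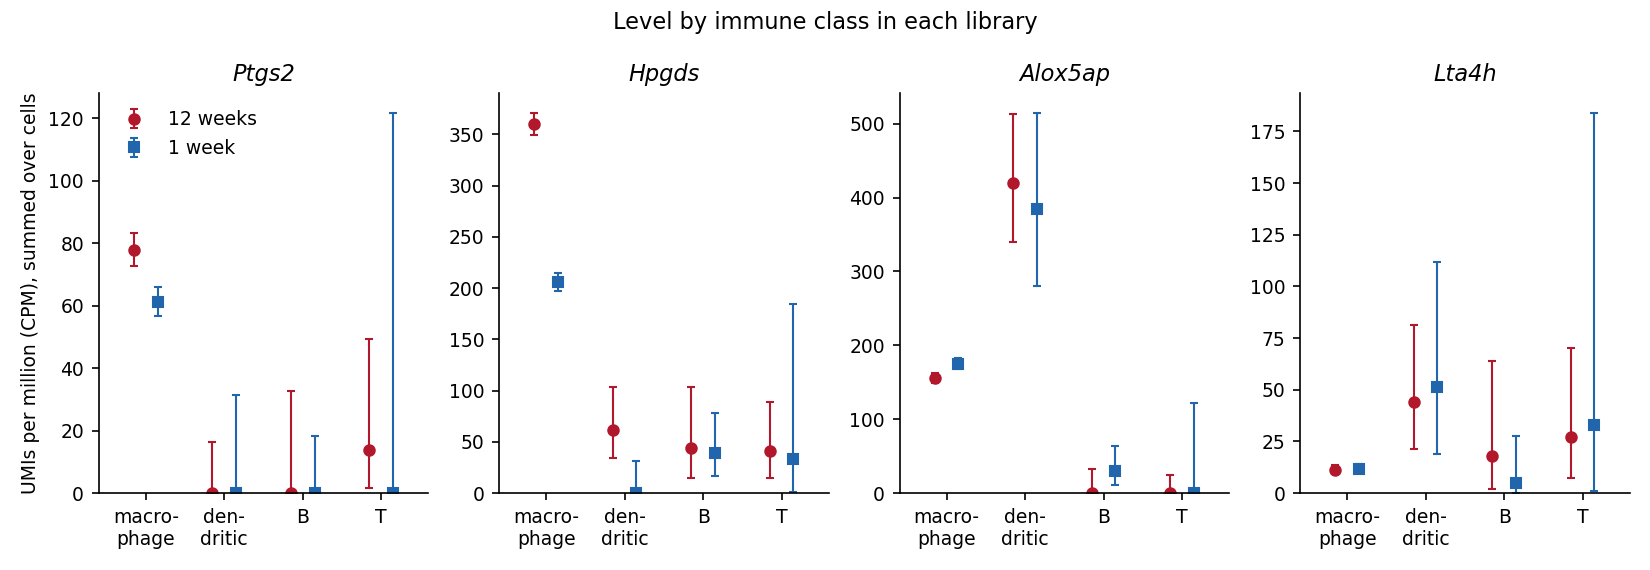
CPM summed over the cells of each class (y axes, linear; bars are exact Poisson 95% intervals) for Ptgs2, Hpgds, Alox5ap and Lta4h in macrophages, dendritic, B and T cells of the 12 weeks and 1 week libraries. Ptgs2 and Hpgds are highest in macrophages, Alox5ap is highest in dendritic cells (420.1 CPM at 12 weeks, 384.9 CPM at 1 week), and the small classes have wide intervals.

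Within macrophages, Ptgs2 and Hpgds were higher in cells high for an inflammatory program and in cells high for an oxidant-response program. A program was the summed thinned UMIs of a list of genes, none of them a member, and the cells at or past the upper and lower quartile of that sum in each library were pooled and compared by edgeR's quasi-likelihood test with library as a block, adjusted by Benjamini-Hochberg over all genes tested. With 1 high and 1 low profile per library the fit had 1 residual degree of freedom. Its p-values thus draw on a spread shared across the genes tested, and not on each gene's spread between the 2 libraries alone. Of the 9 members, 7 passed the filter on low counts in each program, and Ptges and Alox5 did not.

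The inflammatory program (Cxcl1, Cxcl2, Il1a, Il1b, Tnf, Ccl3, Ccl4) is made of cytokines and chemokines released early in inflammation. Ptgs2 stood at 178.2 CPM in high and 9.21 CPM in low macrophages at 12 weeks, and at 158.0 and 8.50 CPM at 1 week. Its log2 difference was 4.46 (SE 0.16, edgeR adjusted p = 2.17e-13). Hpgds stood at 435.1 CPM in high and 295.1 CPM in low macrophages at 12 weeks, and at 248.3 and 133.3 CPM at 1 week, a log2 difference of 0.93 (SE 0.12, edgeR adjusted p = 1.48e-05). Both were higher in the high cells of both libraries, and they were the 2 of 7 members called higher, where 13.2% of 8496 genes were higher and 6.67% lower. The median log2 difference was 0.13 over the members and -0.01 over all genes.

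The remaining members did not pass the test in this program. Hpgd had 31.1 CPM in high and 31.8 CPM in low macrophages at 12 weeks, and 29.5 and 63.4 CPM at 1 week, so that only 1 library held a gap, and its log2 difference was -0.38 (edgeR adjusted p = 0.247). Scaled by total UMIs without TMM factors, which moved the median over all genes to -0.23, Hpgd stood at -0.59 (edgeR adjusted p = 0.0101). Alox5ap had 150.3 CPM in high and 167.4 CPM in low macrophages at 12 weeks, and 160.6 and 181.6 CPM at 1 week.

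Detection across quartiles of the inflammatory program, from low to high, gave Ptgs2 in 2.60, 8.49, 13.1 and 24.4% of macrophages at 12 weeks. At 1 week it was in 2.19, 6.27, 10.3 and 23.2%. Ptgs2 thus stepped up with each quartile in both libraries. Hpgds was in 55.3, 58.6, 58.8 and 66.4% at 12 weeks and in 35.4, 45.6, 43.3 and 42.8% at 1 week. It was lowest in the lowest quartile of both libraries, with no steady order above that at 1 week. Hpgd was in 19.3, 15.0, 10.7 and 9.42% at 1 week, while at 12 weeks its values lay between 7.69 and 9.94% with no order.

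The oxidant program (Hmox1, Srxn1, Txnrd1, Gclm, Slc7a11) holds genes that cells switch on under oxidative stress. Ptgs2 stood at 137.4 CPM in high and 13.5 CPM in low macrophages at 12 weeks, and at 112.8 and 11.1 CPM at 1 week, a log2 difference of 3.47 (SE 0.26, edgeR adjusted p = 2.48e-08). Hpgds stood at 417.8 CPM in high and 257.4 CPM in low macrophages at 12 weeks, and at 250.4 and 128.9 CPM at 1 week, a log2 difference of 0.95 (SE 0.18, edgeR adjusted p = 0.0011). As with the inflammatory program, 2 of 7 members were called higher, where 9.19% of 8553 genes were higher and 5.76% lower. Hpgd had 26.9 CPM in high and 31.5 CPM in low macrophages at 12 weeks, and 25.3 and 88.1 CPM at 1 week; its log2 difference of -0.93 did not pass the test (edgeR adjusted p = 0.0548). At 1 week, from low to high quartile, Hpgd was detected in 25.2, 11.6, 9.21 and 7.22% of macrophages, and at 12 weeks in 7.54, 10.2, 8.24 and 7.46%. Quartiles were set within each library and covered different ranges. The lowest held 0 to 2 oxidant program UMIs at 1 week and 0 to 6 at 12 weeks, the highest 14 to 59 and 26 to 86. Whether the libraries differed in Hpgd across quartiles was not tested.

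The 2 programs overlapped: 39.0% of cells high for the inflammatory program at 12 weeks and 36.6% at 1 week were also high for the oxidant program, against 25.4% of all macrophages in each library. Crossing them, Ptgs2 was detected in 27.6% of cells high for both, 22.3% of cells high for the inflammatory program alone, 12.7% of cells high for the oxidant program alone and 6.42% of cells high for neither at 12 weeks. At 1 week the shares were 30.7, 18.9, 9.66 and 5.18%. Ptgs2 was thus most frequent in value in both libraries where both programs were high. The intervals of that set were 20.7 to 35.5% at 12 weeks and 21.9 to 40.7% at 1 week. They overlapped those of cells high for the inflammatory program alone (17.1 to 28.1% and 13.4 to 25.5%). Hpgds was in 73.7, 61.8, 61.2 and 56.5% of the same 4 sets at 12 weeks and in 48.5, 39.4, 49.4 and 39.2% at 1 week.

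**Figure D3:**
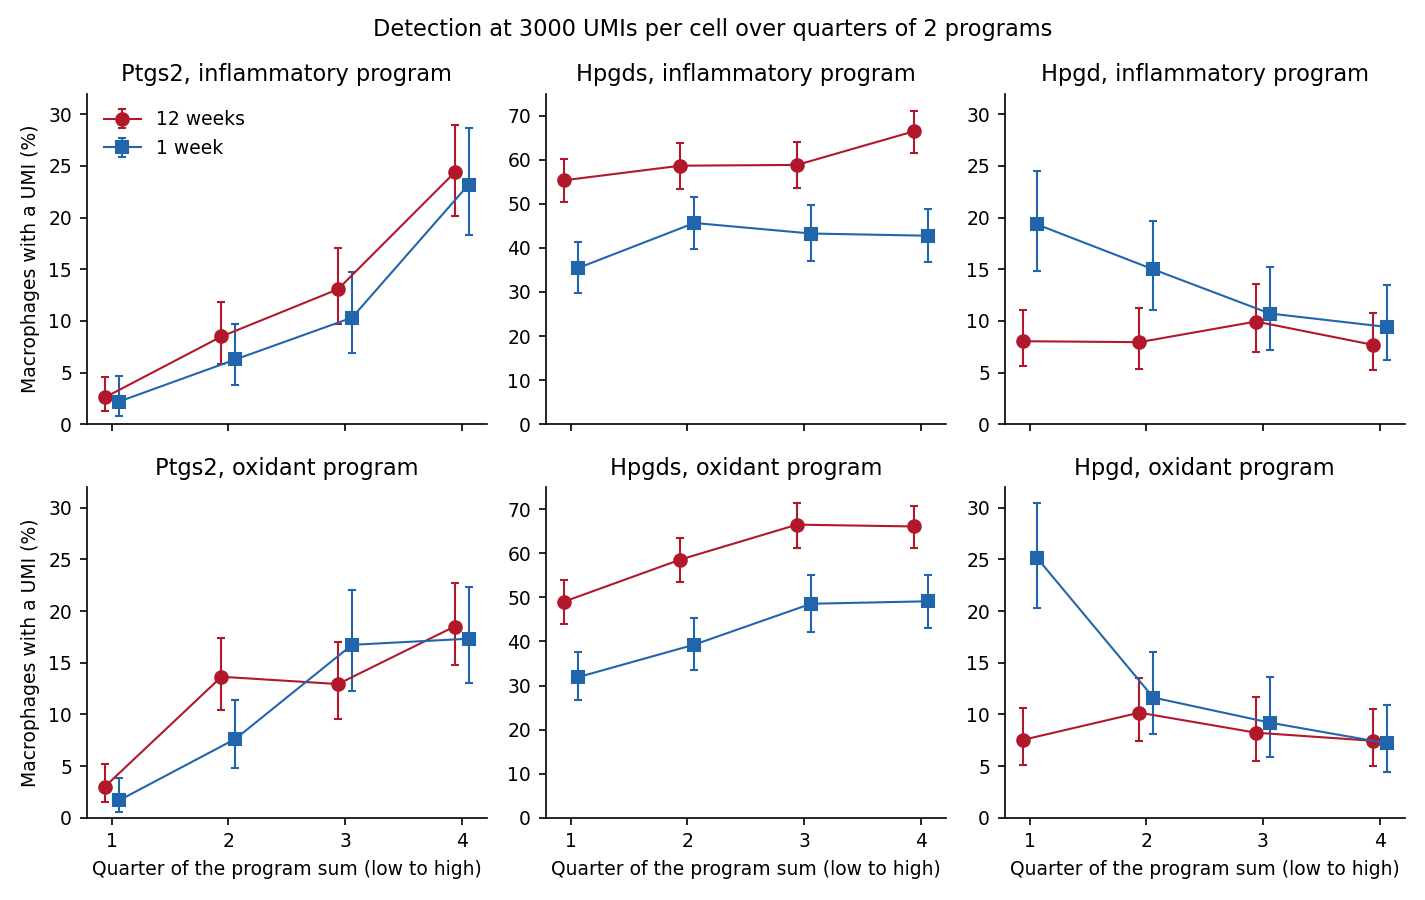
Share of thinned macrophages with a UMI of Ptgs2, Hpgds and Hpgd (y axes, percent; bars are exact binomial 95% intervals) over quartiles of the inflammatory and oxidant program sums, low to high, in the 12 weeks and 1 week libraries. Ptgs2 reaches 24.4% at 12 weeks and 23.2% at 1 week in the top inflammatory quartile, and Hpgd at 1 week is highest in the lowest oxidant quartile (25.2%).

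The heat shock program (Hspa1a, Hspa1b, Hsph1, Dnajb1, Bag3), made of chaperone genes and their partners, went with a smaller difference in Ptgs2 and with Hpgd. High cells held at least 36 thinned UMIs of the program at 12 weeks and at least 10 at 1 week. Ptgs2 stood at 96.0 CPM in high and 51.8 CPM in low macrophages at 12 weeks, and at 106.7 and 28.0 CPM at 1 week, a log2 difference of 1.46 (SE 0.23, edgeR adjusted p = 0.00818). Hpgd stood at 51.5 CPM in high and 31.3 CPM in low macrophages at 12 weeks, and at 47.7 and 26.5 CPM at 1 week, a log2 difference of 0.86 (SE 0.20, edgeR adjusted p = 0.0407; DESeq2 0.301). Of 7 members these 2 were called higher, where 4.28% of 8763 genes were higher and 1.93% lower. Hpgds had a log2 difference of 0.58 (edgeR adjusted p = 0.0885), and of 0.50 (adjusted p = 0.0457) when scaled by total UMIs. Outside the cells high for the inflammatory program, Ptgs2 was detected in 11.9% of macrophages high for heat shock and 6.53% of those not high at 12 weeks, and in 5.35% and 6.39% at 1 week.

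For the interferon program (Ifit1, Ifit2, Ifit3, Isg15, Rsad2, Irf7), 1 of 7 members was called higher, where 2.13% of 9878 genes were higher and 0.192% lower. Because most cells had no UMI of these genes, the high cells were all those with at least 1 (571 at 12 weeks and 383 at 1 week) and the low cells all those with 0 (959 and 706). It was Ptgs2, at 109.4 CPM in high and 58.0 CPM in low macrophages at 12 weeks and 73.0 and 55.0 CPM at 1 week, with a log2 difference of 0.70 (SE 0.13, edgeR adjusted p = 0.0457). Of cells high for the inflammatory program, 50.8% at 12 weeks and 50% at 1 week were also high for the interferon program. The shares over all macrophages were 37.3% and 35.2%. Whether Ptgs2 differed with the interferon program outside the cells high for the inflammatory one was not tested. For the cycling program (Mki67, Top2a, Cdk1, Birc5, Ccnb2, Stmn1), 0 members were called by edgeR and 0 by DESeq2, where 2.97% of 9953 genes were higher and 0.914% lower by edgeR. Here too the high cells were those with at least 1 UMI (156 at 12 weeks and 149 at 1 week) and the low cells those with 0 (1374 and 940). By edgeR 1 member, Ptgs1, had an unadjusted p under 0.05.

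Insulin transcripts, which macrophages do not make, moved with these programs. They took 0.153% of UMIs in high and 1.51% in low cells of the inflammatory program at 12 weeks, and 0.319% and 6.53% at 1 week; for the oxidant program the shares were 0.137% and 1.63% at 12 weeks and 0.201% and 6.36% at 1 week. Over 1% insulin was found in 39 of 1530 thinned macrophages at 12 weeks and 55 of 1089 at 1 week. Without those cells Ptgs2 stood at 4.16 and Hpgds at 0.84 on the log2 scale for the inflammatory program (edgeR adjusted p for Hpgds 3.69e-05), and at 3.37 and 0.89 for the oxidant program (adjusted p for Hpgds 0.0012). Hpgd was then called lower in the cells high for the oxidant program, at -1.06 (edgeR adjusted p = 0.0286).

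**Figure D4:**
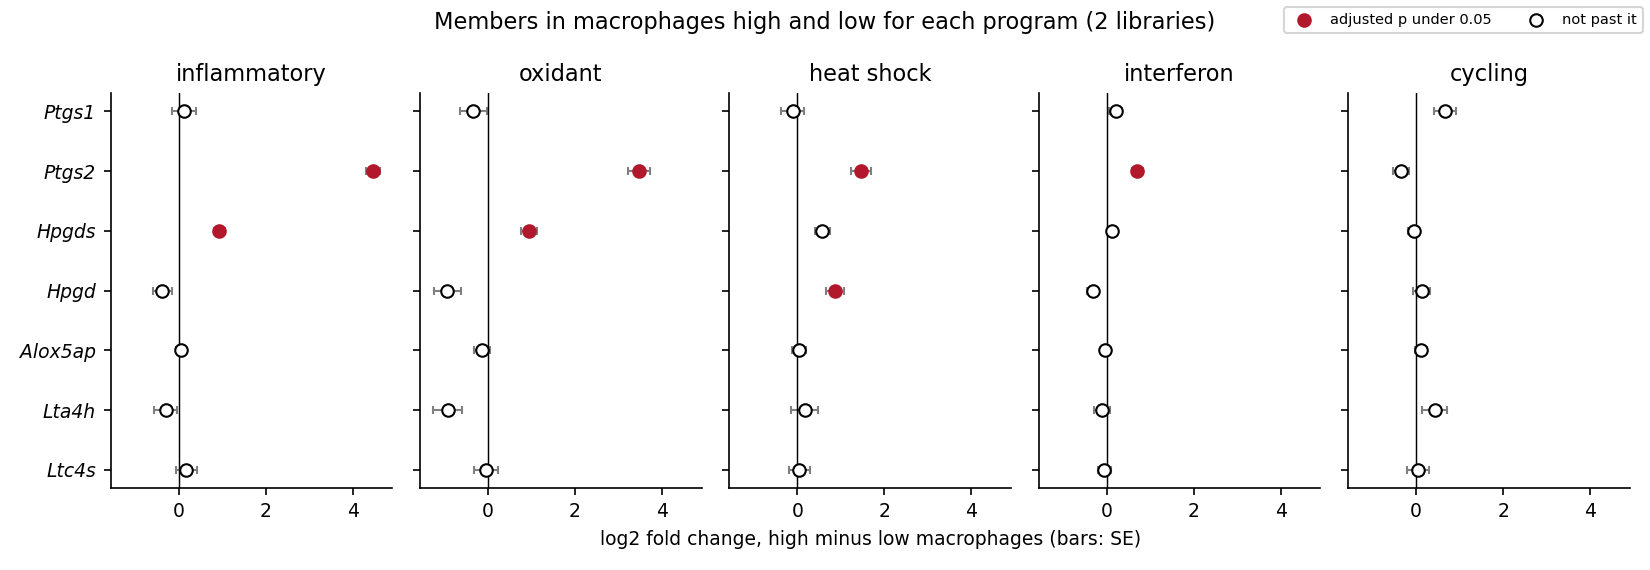
Log2 difference between macrophages high and low for each program (x axes; bars are standard errors of the edgeR fit) for the 7 members tested, with filled points where the Benjamini-Hochberg adjusted p was under 0.05. Ptgs2 is filled in 4 programs and largest for the inflammatory one (4.46), and Alox5ap, Lta4h, Ltc4s and Ptgs1 are filled in none.

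The other genes of the pathway, a list of 42 phospholipases, synthases, transporters, breakdown enzymes and receptors, were read in the same fits. In the class test 4 passed the filter on low counts, and 2 were higher in macrophages than in the mean of the 3 classes, where 25.4% of all genes tested were. Pla2g7, the phospholipase that breaks down platelet-activating factor, had 183.4 CPM in macrophages at 12 weeks and 139.2 CPM at 1 week (edgeR adjusted p = 1.22e-06; DESeq2 0.181, not called). Cyp4f18, a cytochrome that inactivates leukotriene B4, had 182.1 CPM in macrophages and 22.1 CPM in dendritic cells at 12 weeks, and 201.3 and 25.7 CPM at 1 week. Its log2 difference from the mean of the 3 classes was 3.49 (SE 0.33, edgeR adjusted p = 2.14e-06). Both of these genes thus act on breakdown rather than synthesis of lipid mediators.

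In the inflammatory program 5 of 16 listed genes tested were higher in high macrophages and 0 lower, where 13.2% of all genes were higher. They were led by Ptger4, a receptor for prostaglandin E2, with a log2 difference of 1.30 (SE 0.17, edgeR adjusted p = 1.17e-05), and also held Pla2g15, Abcc1, Ptges3 and Pla2g7 at 0.86, 0.71, 0.52 and 0.37. In the oxidant program 4 of 16 were higher and 0 lower, where 9.19% of all genes were higher, led by Abcc1, which exports leukotriene C4, at 1.98 (SE 0.26, edgeR adjusted p = 2.63e-05). In the heat shock program 1 of 17 was higher, where 4.28% of all genes were: Ptges3 at 0.82, which encodes the cochaperone p23 as well as acting as a prostaglandin E synthase. In the interferon program 0 of 20 and in the cycling program 0 of 19 were called by edgeR.

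Between the libraries, 22 listed genes had at least 20 UMIs in macrophages. Of all 11072 such genes, 2.72% were at least 2-fold higher at 12 weeks and 5.77% at least 2-fold lower, and 1 listed gene passed 2-fold. It was Dpep2, a dipeptidase of leukotriene D4, with 9 UMIs at 12 weeks and 29 at 1 week (ratio 0.309, counting interval 0.129 to 0.671). The symbol Dpep2 stands for 2 entries among the genes counted, and these UMIs are those of the first only. In macrophages of both libraries 10 of the 42 had 0 UMIs, which by the floor of 3 counts allows up to 0.262 CPM at 12 weeks and 0.263 CPM at 1 week. Chosen after their values were seen, these include both receptors for prostaglandin D2, Ptgdr and Ptgdr2, and the other prostaglandin D synthase, Ptgds. A count of 0 was common among genes. Any UMI in macrophages, B, T or dendritic cells was found for 32 of the 42 and for 17724 of all 31053 genes.

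Across thinned macrophages of each library, Ptgs2 counts were most like those of Cxcl2 (Pearson r 0.241 over 1530 cells at 12 weeks and 0.263 over 1089 at 1 week), Il1b (0.208 and 0.269) and Ccl3 (0.257 and 0.187). All 3 are genes of the inflammatory program, and in all 9 genes passed an r of 0.15 in both libraries. Hpgds had 1 such gene, the nuclear RNA Malat1 (0.208 at 12 weeks and 0.153 at 1 week). Malat1 was itself higher in value in the high cells of both programs in which Hpgds was called. It had 22281 CPM in high and 19875 CPM in low cells of the inflammatory program at 12 weeks, and 21196 and 17572 CPM at 1 week. For the oxidant program it had 22954 and 19349 CPM at 12 weeks, and 21512 and 15888 CPM at 1 week. Its part in the Hpgds result was not tested. Hpgd, Alox5ap and Ltc4s had no gene past an r of 0.15, and the other members were in under 5% of thinned macrophages in at least 1 library. Cells of 1 library share its preparation, so these values describe the libraries. Among the members themselves the highest r was 0.0854, between Hpgd and Alox5ap at 1 week, which in counts this sparse is no finding.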

How the data were processed

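Whole-number UMI counts per gene and cell, deposited by the authors for 2 libraries, were made with Cell Ranger 3.1.0 per the file headers, on mm10 per the submitters' processing notes. Cells were kept from 500 genes and 1000 UMIs upward when mitochondrial UMIs made up no more than 10%; no doublet caller was run. Library totals were 12448628 UMIs at 12 weeks and 12858754 at 1 week. Thinning to 3000 UMIs was random without replacement. Cells with low C1q were assigned by at least 2 distinct markers to the class with most marker UMIs; this gate, and leaving Siglech out of it, were chosen after seeing the data. Members and lists were chosen with earlier results of these data known. Tests used edgeR 4.0.16 with TMM factors (R 4.3.3) on summed counts, with DESeq2 1.42.0 as an alternative, adjusted by Benjamini-Hochberg at 0.05, and were checked on simulated data. High and low cells or classes of 1 library come from 1 pool of mice, so library was a block. Named list genes were those called in a comparison or past 2-fold, and like genes the 3 with the highest r past 0.15 in both libraries. Intervals ignore PCR and pooling. Positions are GENCODE M21 on GRCm38.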

Additional observations from a re-analysis of the deposited data

Results flagged for a closer look

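Some differences between macrophages pointed one way at 12 weeks and the other way at 1 week. None of these contrasts between libraries was tested, and each rests on 1 library per label. All values in this paragraph are CPM in high minus CPM in low macrophages, except for Alox5. For the inflammatory program, Ptgs1 gave 5.18 at 12 weeks and -8.90 at 1 week, and Ltc4s gave -7.25 and 6.47. For the oxidant program, Ptgs1 gave 2.02 at 12 weeks and -18.1 at 1 week. For the interferon program, Lta4h gave -2.22 at 12 weeks and 0.0871 at 1 week, and Ltc4s gave 0.216 and -2.25. For the heat shock program, Alox5ap gave -23.3 at 12 weeks and 18.4 at 1 week, and Lta4h gave -0.379 and 1.62. For the cycling program, Ptgs2 gave -31.5 at 12 weeks and 8.84 at 1 week, and Hpgd gave -8.36 and 25.2. Alox5 in macrophages minus the mean of B, T and dendritic cells was -5.05 CPM at 12 weeks and 0.438 CPM at 1 week, from 2 UMIs in dendritic and 1 in T cells at 12 weeks.

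Cells outside the tested classes also carried Alox5ap, the partner of 5-lipoxygenase. The 10 neutrophil-gated cells at 12 weeks held 17 UMIs in 8 cells (998.5 CPM, interval 581.7 to 1599). The monocyte gate held 11 UMIs in its 1 cell at 12 weeks and 18 UMIs in its 4 cells at 1 week. These gates hold too few cells for a test.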

How the results depend on the processing

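The counts recomputed were of members called, past 2-fold between the libraries or in at least 5% of macrophages. They kept within 1.5 times of the reported count in 73 recomputations, fell below that in 6 and rose above it in 7. Counts of 0 that stayed 0 are among the 73. So is the fall from 3 to 2 members higher in macrophages than in other classes under DESeq2. With no filter on low counts 6 members were higher in macrophages than in other classes, and with low C1q immune cells summed 5 were higher and 1 lower, with Alox5ap reversed to -0.14 on the log2 scale; these alternatives test more members, 9 and 7. Thinned to 1500 UMIs, 3 members were in at least 5% of macrophages at 12 weeks, against 5 at 3000 UMIs. Without the replicate block, which pairs high and low cells of 1 library, members called higher were 1 for the inflammatory, 0 for the interferon, 1 for the heat shock and 1 for the oxidant program, against 2, 1, 2 and 2 with it; Hpgds then had an adjusted p of 0.264 for the inflammatory and 0.221 for the oxidant program (edgeR). DESeq2 called 1 member higher for the heat shock program. For the oxidant program, members called lower were 2 between the upper and lower tertile (Hpgd and Lta4h), 2 when scaled by total UMIs and 1 without insulin-rich cells, against 0; for the inflammatory program, 1 (Hpgd) was called lower when scaled by total UMIs, against 0. The last 2 alternatives were chosen after seeing the data. Scaling by total UMIs moved the median log2 difference of all genes to -0.23 for the inflammatory program, -0.18 for the oxidant program and -0.20 for macrophages against other classes. The cause of these changes was not tested. DESeq2 ended the call of Ptgs2 against each class. Of 196 state values recomputed for members, 13 changed sign, none of them called. Leaving out the 1 week or the 12 weeks library kept the direction of each class difference, with Hpgds from 3.20 to 5.94 and Alox5ap from 4.48 to 7.51 against the mean of the classes. Thinned cells gave time ratios of 0.521 for Ptgs1 and 0.564 for Hpgd, and TMM scaling one of 1.84 for Hpgds. A stricter filter on cells left B and T classes under 10 cells; against dendritic cells it kept the calls, with Hpgds at 3.25 and Alox5ap at -1.05. Tertiles of the interferon and cycling programs hold the same cells as their quartiles and give no separate value. With 1 pool per label and few cells outside macrophages, depth limits what can be said of Ptges, Alox5 and Lta4h.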

Other observations

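Among the listed receptors, 2 were lower in macrophages than in dendritic cells with no filter on low counts, where 1.19% of all genes were lower, and the other receptors tested were not called. They were named after their values were seen. Ltb4r1, the high-affinity receptor for leukotriene B4, had 11 UMIs in 1620 macrophages and 7 in 27 dendritic cells at 12 weeks (0.961 and 31.0 CPM), and 14 in 1243 and 7 in 12 at 1 week (1.23 and 59.9 CPM). Its difference was -4.74 on the log2 scale by edgeR's quasi-likelihood test with Benjamini-Hochberg adjustment (adjusted p = 5.35e-05). Ptgir, the prostacyclin receptor, stood at 2.27 CPM in macrophages and 22.1 CPM in dendritic cells at 12 weeks, and at 1.84 and 34.2 CPM at 1 week, with a log2 difference of -3.16 in the same fit (adjusted p = 0.0438). Counts in dendritic cells are between 4 and 7 UMIs per library for these receptors.

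Mgst2, a relative of Ltc4s, had 2 UMIs in macrophages at 12 weeks and 1 at 1 week, while T cells at 12 weeks held 8 and B cells at 1 week held 5. When all low C1q immune cells of a library were summed, it was lower in macrophages, at -6.14 on the log2 scale (SE 0.88, edgeR adjusted p = 9.05e-06). Of 21 listed genes tested in that comparison 7 were higher and 4 lower, where 14.5% of all genes were higher and 9.79% lower. Mgst2 is 1 of those 4, and the others are not named here.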
